A study of Homo sapiens with 6 samples.

Results

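The interferon ligands and receptors are described here in SiHa cells, an established human line of cervical squamous cell carcinoma. The set held 10 of the 58174 genes in the files. Its members were chosen by name and role, with no stated threshold on their values but with earlier results of these data known. The 19 other interferon genes, left out of the set, were at or near 0. IFNL1, IFNB1 and IFNE encode ligands, IFNAR1, IFNAR2, IFNLR1, IL10RB, IFNGR1 and IFNGR2 encode the receptor chains, and TYK2 encodes a kinase bound to several of these chains. The OV-BRCA1 group comprised 3 samples that received the GV230-BRCA1 plasmid, and the NC group comprised 3 samples that received the empty GV230 plasmid. Both groups were transfected with Lipofectamine 3000 and collected after 48 h, so every sample had taken part in a transfection with plasmid DNA and none was left untransfected. The expression is transient and in 1 cell line. The study calls the samples biological replicates, whereas the labels do not say whether they came from separate cultures, so the p-values measure the spread between these samples.

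Interferons are secreted proteins that cells make when they sense viral or misplaced nucleic acid. Type I interferons, among them IFN-beta (IFNB1) and IFN-epsilon (IFNE), bind a receptor of the IFNAR1 and IFNAR2 chains, which is found on most cells. Type III interferons, the IFN-lambdas, bind IFNLR1 paired with IL10RB, and IFNLR1 is largely restricted to epithelial cells such as those of the cervix. Type II interferon, IFN-gamma, is made mainly by lymphocytes and binds IFNGR1 with IFNGR2. TYK2 sits with JAK1 on the type I and type III receptors, whereas the IFN-gamma receptor uses JAK1 and JAK2.

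The promoters of the ligands are shown because the groups did not overlap for IFNL1 and IFNB1 and overlapped for IFNE. Each run is the stretch of RefSeq's GRCh38.p14 promoter window upstream of the gene start in GENCODE release 29, read on the gene's own strand. Capitals mark matches, on either strand, to the core of the interferon-stimulated response element (GAAA, any 2 bases, GAAA), to the shorter core bound by interferon regulatory factors (AANNGAAA), which the former contains, and to an NF-kB site (GGGA, any 2 bases, TTCC). Positions are counted back from the gene start, with -1 the last base before it.
IFNL1 (chr19:39296157-39296324, plus strand): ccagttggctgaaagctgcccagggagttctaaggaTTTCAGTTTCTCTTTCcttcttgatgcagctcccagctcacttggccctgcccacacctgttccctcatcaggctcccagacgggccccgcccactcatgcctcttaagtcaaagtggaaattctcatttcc
IFNB1 (chr9:21077964-21078192, minus strand): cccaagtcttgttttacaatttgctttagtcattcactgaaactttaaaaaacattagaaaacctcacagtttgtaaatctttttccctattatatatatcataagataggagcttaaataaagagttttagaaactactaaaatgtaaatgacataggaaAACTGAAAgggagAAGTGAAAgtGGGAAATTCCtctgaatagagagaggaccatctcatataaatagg
IFNE (chr9:21482314-21482563, minus strand): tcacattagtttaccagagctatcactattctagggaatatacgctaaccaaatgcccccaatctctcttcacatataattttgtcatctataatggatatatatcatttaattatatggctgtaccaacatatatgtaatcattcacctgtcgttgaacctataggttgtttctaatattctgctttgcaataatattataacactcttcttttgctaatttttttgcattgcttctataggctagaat
The capitals in IFNL1 hold 2 overlapping response element cores, at -132 to -123 and at -126 to -117, both on the strand opposite to the gene. An interferon regulatory factor core lies within each of them. In IFNB1 the capitals are, from left to right, an interferon regulatory factor core at -68 to -61, another at -55 to -48 and the NF-kB match at -45 to -36. The IFNE stretch holds no match to these letters. Of 35116 promoter windows of 300 bases, 3.57% held the response element core, 22.8% the interferon regulatory factor core and 1.61% the NF-kB site. Windows were found for 9 of the 10 genes. Besides IFNL1 and IFNB1, the only gene with a match in its windows was IFNGR2, with 1 NF-kB match. Whether the matches have a part in the differences between the groups was not tested.

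The values are FPKM, which scales the fragments of a transcript to its length and to the mapped fragments of the sample. Summing was over all transcripts of a gene, so levels are per length. On log2(FPKM + 1), limma's moderated test covered the 16321 genes that reached 0.5 FPKM in 3 or more samples. Differences are OV-BRCA1 minus NC on that scale, which understates changes of low genes. A gene is said to have risen or fallen where the Benjamini-Hochberg adjusted p-value was below 0.05. Where a pair of values is given with "against", the OV-BRCA1 value comes first. A DEG also needed an absolute log2 difference above 1. The estimated depth was 13.6 to 16.1 M (1e6) fragments per OV-BRCA1 sample and 15.6 to 19.1 M per NC sample. BRCA1 itself stood at 37.1 ± 3.18 FPKM in the OV-BRCA1 group against 18.9 ± 3.56 in the NC group (mean ± SD, n = 3 per group), and the groups did not overlap. Mitochondrial transcripts took 14.8% to 17.2% of the summed FPKM in the OV-BRCA1 samples and 21.0% to 23.2% in the NC samples. Of 9 epithelial markers, 4 (KRT5, KRT19, TP63 and CDH1) stayed below 1 FPKM in all samples, while the summed level was 1708 to 1851 FPKM in the OV-BRCA1 group against 2101 to 2190 in the NC group. KRT17, KRT8 and KRT18 were the highest of them and differed in direction. KRT17 fell, from 1434 ± 8.67 to 1033 ± 90.3 FPKM, whereas KRT8 (373 ± 16.8 against 326 ± 12.3), KRT18 (252 ± 3.87 against 192 ± 6.05) and EPCAM (6.79 ± 0.860 against 2.59 ± 0.457) rose (mean ± SD, n = 3 per group). Of 10 leukocyte markers, 8 were below 1 FPKM throughout, with PTPRC, MS4A1 and CLEC4C at 0 in all samples, and the summed level was 31.4 to 37.4 FPKM against 22.7 to 24.6. CD68 and CD14 carried that sum. CD68 was at 26.3 ± 3.73 FPKM against 3.43 ± 0.717, and CD14 at 7.79 ± 1.20 against 19.4 ± 1.34 (mean ± SD, n = 3 per group). The summed endothelial markers stayed between 0.629 and 1.45 FPKM, with VWF and KDR at 0. A scaling to nuclear protein-coding genes, which leaves the mitochondrial genes out, is given with the alternatives at the end. Beyond that, the part of the mitochondrial share and of the epithelial and leukocyte markers in the results was not tested. In bulk samples a change in the number of expressing cells and a change in RNA per cell cannot be told apart.

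Within the set, IFNL1, IFNLR1 and IFNGR1 rose in the OV-BRCA1 group and TYK2 fell. Of the 9 genes tested, 4 changed, but IFNL1 was at 0 in the NC group and entered the test only through the OV-BRCA1 values, so it is left out of the comparison with all genes. Of the other 8, 3 changed (37.5%), where 35.3% of all genes tested changed, so the share lay near the background. The 2 of these that rose compare with 16.4% of all genes and the 1 that fell with 18.9%. The median difference of the 8 genes was 0.09, and that of all genes tested was -0.04. None of the 8 was a DEG, where 2.89% of all genes were upregulated DEGs and 1.1% were downregulated DEGs. IFNB1 was below the filter and was not tested. Among the same 8 genes the groups did not overlap for 3, with OV-BRCA1 higher in IFNLR1 and IFNGR1 and lower in TYK2, where the groups did not overlap for 50.8% of the genes tested (23.4% higher and 27.4% lower). IFNL1 and IFNB1, whose groups did not overlap either, stay outside that comparison.

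**Figure D1:**
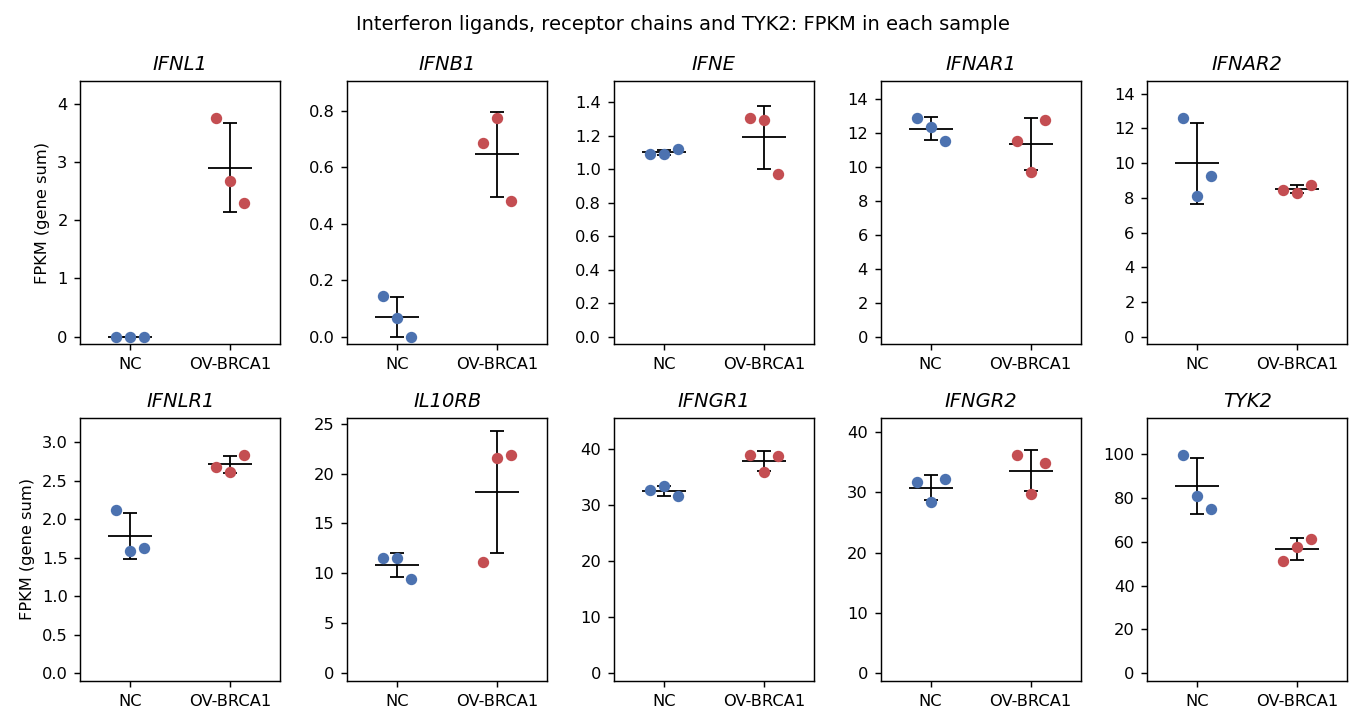
FPKM of each gene (vertical axes, gene sums, each from 0) in the NC samples (blue) and OV-BRCA1 samples (red), 1 point per sample, with the mean as a horizontal line and the SD as a bar. The 3 OV-BRCA1 points lie above all NC points for IFNL1, IFNB1, IFNLR1 and IFNGR1 and below them for TYK2, and 1 OV-BRCA1 sample of IL10RB lies among the NC samples.

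Among the ligands, IFNL1 (ENSG00000182393, chr19:39296325-39298673, plus strand), which encodes IFN-lambda 1, rose. It stood at 3.76, 2.68 and 2.29 FPKM in OV-BRCA1 replicates 1, 2 and 3 while each NC replicate was listed at 0. Its single transcript has 857 bases, on which 1 fragment is worth an estimated 0.061 to 0.0856 FPKM, so the OV-BRCA1 values correspond to about 50.3, 36.9 and 26.8 fragments. The difference was 1.95 (limma adjusted p = 2.55e-04), which meets the criterion of a DEG. IFNL1 passed the filter only through its OV-BRCA1 values, and its NC values have no spread, so this p and the interval drawn for it rest on the OV-BRCA1 samples and on the spread of other genes. The size of the difference is set by the pseudocount, and with 0.1 in place of 1 it was 4.88. The exact two-sided permutation test gave p = 0.1, the smallest possible here. Among 19762 protein-coding genes, 2 were listed at 0 in every NC sample and at 1 FPKM or more in every OV-BRCA1 sample. The other was TIGD1, a gene derived from a transposable element, at 2.48, 2.46 and 2.07 FPKM in OV-BRCA1 replicates 1, 2 and 3. The reverse pattern was found in 0 protein-coding genes.

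IFNB1 (ENSG00000171855, chr9:21077105-21077963, minus strand) encodes IFN-beta, the type I interferon that many cell types make first after nucleic acid sensing. It stood at 0.686, 0.774 and 0.479 FPKM in OV-BRCA1 replicates 1, 2 and 3 and at 0.143, 0.0641 and 0 in NC replicates 1, 2 and 3. The groups did not overlap, but the values rest on about 9.19, 10.7 and 5.61 fragments against 1.91, 1.00 and 0. The exact two-sided permutation test gave p = 0.1, the smallest that 3 samples against 3 allow. With no filter on low values, limma gave a difference of 0.62 (adjusted p = 0.0411), in a fit in which 6.13% of all genes passed, 3.15% higher and 2.98% lower. The size depends on the pseudocount, and with 0.1 in place of 1 the difference was 2.21.

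IFNE (ENSG00000184995, chr9:21480839-21482313, minus strand) encodes IFN-epsilon, known as a constitutive interferon of the female reproductive tract. Its level was 1.31, 1.29 and 0.971 FPKM in OV-BRCA1 replicates 1, 2 and 3 and 1.09, 1.09 and 1.12 in NC replicates 1, 2 and 3. The groups overlapped, with a difference of 0.06 (95% CI -0.18 to 0.29, limma adjusted p = 0.687). IFNE lies within the long non-coding gene MIR31HG on the same strand, and reads of both genes could not be separated in these files. MIR31HG was at 3.03 ± 0.454 FPKM in the OV-BRCA1 group against 2.74 ± 0.102 in the NC group (mean ± SD, n = 3 per group).

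The other 19 interferon genes were at or near 0. None passed the filter, and 13 were listed at 0 in all 6 samples, including IFNG, IFNK, IFNW1 and IFNL4. IFNA1, an IFN-alpha gene, lay at 0.110, 0.055 and 0.0719 FPKM in the OV-BRCA1 samples and at 0.144, 0 and 0.107 in the NC samples, with overlapping groups. The near-identical IFNA13 reached at most 0.0602 FPKM, in NC sample 3, and reads could be split between these copies. The closest relatives of IFNL1 were also low. IFNL2 was at 0.081 FPKM in OV-BRCA1 sample 1, IFNL3 at 0.206 and 0.102 in OV-BRCA1 samples 2 and 3, and both were listed at 0 in the other samples. They share near-identical sequence and were named with their values known.

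The chains of the type I receptor did not pass the test. IFNAR1 (ENSG00000142166, chr21:33324477-33359862, plus strand), the chain that binds TYK2, stood at 11.5, 9.74 and 12.8 FPKM in OV-BRCA1 replicates 1, 2 and 3 and at 12.9, 12.4 and 11.5 in NC replicates 1, 2 and 3. The groups overlapped, and the difference was -0.11 (95% CI -0.36 to 0.15, limma adjusted p = 0.465). Its full-length transcript IFNAR1-201 had 9.27 ± 0.678 FPKM in the OV-BRCA1 group against 9.36 ± 0.345 in the NC group (mean ± SD, n = 3 per group). IFNAR2 (ENSG00000159110, chr21:33229901-33265675, plus strand), the chain with the higher affinity for type I interferons, stood at 8.46, 8.27 and 8.74 FPKM against 12.6, 8.11 and 9.25. NC sample 1 was higher than the rest, and the groups overlapped, with a difference of -0.19 (95% CI -0.55 to 0.17, limma adjusted p = 0.362). Without NC sample 1 the difference was -0.03, and without NC sample 2 it was -0.32, neither called. In NC sample 1 the transcript IFNAR2-203, annotated for nonsense-mediated decay, took 4.68 FPKM. With protein-coding transcripts alone the difference turned to 0.22 (adjusted p = 0.319). IFNAR2 shares exons with the read-through gene AP000295.1, which joins it to IL10RB, so their reads may be divided between these genes. AP000295.1 was at 3.61 ± 2.14 FPKM in the OV-BRCA1 group against 3.79 ± 3.79 in the NC group (mean ± SD, n = 3 per group).

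The ligand-specific chain of the type III receptor rose. IFNLR1 (ENSG00000185436, chr1:24154157-24187959, minus strand) stood at 2.69, 2.62 and 2.84 FPKM in OV-BRCA1 replicates 1, 2 and 3 and at 2.12, 1.59 and 1.63 in NC replicates 1, 2 and 3. The OV-BRCA1 replicates were all higher than the NC replicates, and the ratio of the means was 1.53. The difference was 0.42 (SE 0.10, 95% CI 0.18 to 0.67, limma adjusted p = 0.0212). Most of the level came from the longest transcript, IFNLR1-201, at 1.66, 1.59 and 1.68 FPKM against 1.01, 1.07 and 1.03. These values did not overlap either, and in a fit over 50925 transcripts, of which 5.47% passed (2.85% higher and 2.63% lower), its difference was 0.38 (adjusted p = 0.143). The call on the gene sum was lost without OV-BRCA1 sample 1 (adjusted p = 0.0539) or 3 (0.0638) and without NC sample 2 (0.0660) or 3 (0.0676), with differences between 0.37 and 0.51 over all 6 omissions. It was also lost with no filter on low values (adjusted p = 0.0741).

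IL10RB (ENSG00000243646, chr21:33266358-33310187, plus strand), the partner chain that the type III receptor shares with the receptors of IL-10, IL-22 and IL-26, did not pass the test. It stood at 11.1, 21.6 and 21.9 FPKM in OV-BRCA1 replicates 1, 2 and 3 and at 11.5, 11.6 and 9.47 in NC replicates 1, 2 and 3. OV-BRCA1 samples 2 and 3 were high, while OV-BRCA1 sample 1 lay among the NC samples. The difference was 0.64 (95% CI 0.03 to 1.26, limma adjusted p = 0.0975), and without OV-BRCA1 sample 1 it was 0.94 (adjusted p = 0.00352). The high values came from 1 transcript, IL10RB-204, which is annotated as a retained intron and shares exons with the coding transcript. IL10RB-204 stood at 0.738, 15.4 and 16.3 FPKM in the OV-BRCA1 samples and at 1.07, 1.24 and 1.06 in the NC samples. The coding transcript IL10RB-201 was lowest in OV-BRCA1 samples 2 and 3, with 8.32, 5.11 and 4.78 FPKM against 8.92, 8.44 and 6.40, and the groups overlapped. Without IL10RB-204 the difference of the gene was -0.39 (adjusted p = 0.207), so the direction of the gene's difference depended on whether IL10RB-204 was counted. The sum of IL10RB-201 and IL10RB-204 was 9.05, 20.5 and 21.0 FPKM against 9.98, 9.68 and 7.46.

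**Figure D2:**
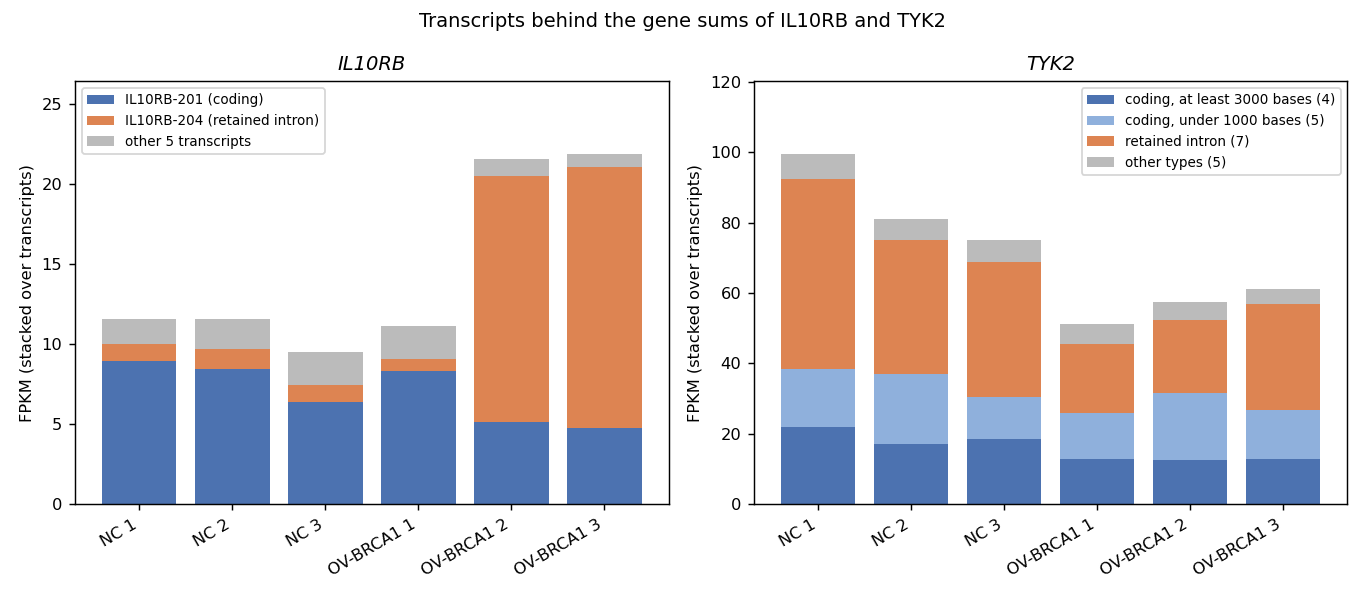
FPKM stacked over the transcripts of IL10RB (left) and TYK2 (right), 1 bar per sample, with transcripts coloured by their annotated type. IL10RB-204 takes 15.4 and 16.3 FPKM in OV-BRCA1 replicates 2 and 3 and 0.738 to 1.24 in the other 4 samples. In TYK2 the sum of the retained-intron transcripts and the sum of the long coding transcripts are lower in the OV-BRCA1 samples, though not every single transcript is. TYK2-207, the highest of the short coding transcripts, overlaps between the groups.

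Of the chains of the IFN-gamma receptor, the ligand-binding chain rose by a small amount. IFNGR1 (ENSG00000027697, chr6:137197484-137219449, minus strand) stood at 39.0, 35.9 and 38.8 FPKM in OV-BRCA1 replicates 1, 2 and 3 and at 32.7, 33.4 and 31.7 in NC replicates 1, 2 and 3. The groups did not overlap, and the ratio of the means was 1.16. The difference was 0.21 (SE 0.06, 95% CI 0.08 to 0.34, limma adjusted p = 0.0283). Its main transcript IFNGR1-201 held most of the level, at 35.9 ± 1.37 FPKM in the OV-BRCA1 group against 30.3 ± 1.32 in the NC group (mean ± SD, n = 3 per group). The call was lost without any 1 sample other than OV-BRCA1 sample 2 (adjusted p between 0.0273 and 0.0835 over the 6 omissions, differences between 0.19 and 0.25) and with no filter on low values (adjusted p = 0.0666). IFNGR2 (ENSG00000159128, chr21:33402896-33479348, plus strand), the signalling chain, stood at 36.2, 29.7 and 34.8 FPKM against 31.6, 28.3 and 32.1. The groups overlapped, with a difference of 0.12 (95% CI -0.10 to 0.34, limma adjusted p = 0.337). IFNGR2 overlaps TMEM50B on the opposite strand, and the use of strand in counting is not given in the sources used here.

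TYK2 (ENSG00000105397, chr19:10350529-10380676, minus strand), the kinase on the IFNAR1 and IL10RB chains, fell. It stood at 51.1, 57.5 and 61.2 FPKM in OV-BRCA1 replicates 1, 2 and 3 and at 99.6, 81.0 and 75.1 in NC replicates 1, 2 and 3. All OV-BRCA1 samples lay below all NC samples, and the ratio of the means was 0.664. The difference was -0.58 (SE 0.12, 95% CI -0.86 to -0.29, limma adjusted p = 0.0122), and the call held without each sample in turn (adjusted p between 0.0155 and 0.0380).
The level of TYK2 was divided over 21 transcripts, most of them short. The 4 transcripts of at least 3000 bases, all coding, summed to 12.8, 12.5 and 12.8 FPKM in the OV-BRCA1 samples and to 22.0, 17.2 and 18.6 in the NC samples. The 17 transcripts under 1000 bases summed to 38.3, 45.0 and 48.4 FPKM against 77.6, 63.9 and 56.4. Neither sum overlapped between the groups. The 7 retained-intron transcripts took 41.3% ± 6.77 of the gene's FPKM in the OV-BRCA1 group against 50.7% ± 3.58 in the NC group (mean ± SD, n = 3 per group). Over all genes, retained-intron transcripts took 8.49% to 8.73% of the FPKM in the OV-BRCA1 samples and 9.09% to 9.21% in the NC samples, and the part of this difference in the TYK2 result was not tested. Among single transcripts of TYK2, 1 of 16 tested fell, where 2.63% of all transcripts tested fell (5.47% changed in either direction). It was the retained-intron TYK2-213, at 6.98 ± 1.31 FPKM against 13.2 ± 0.965 (mean ± SD, n = 3 per group), with a difference of -0.84 (adjusted p = 0.0426). With protein-coding transcripts alone the difference of the gene was -0.32 (adjusted p = 0.0974), and with no filter on low values the adjusted p was 0.0941. On its most abundant transcript alone the difference was -1.07 and not called (adjusted p = 0.211).

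**Figure D3:**
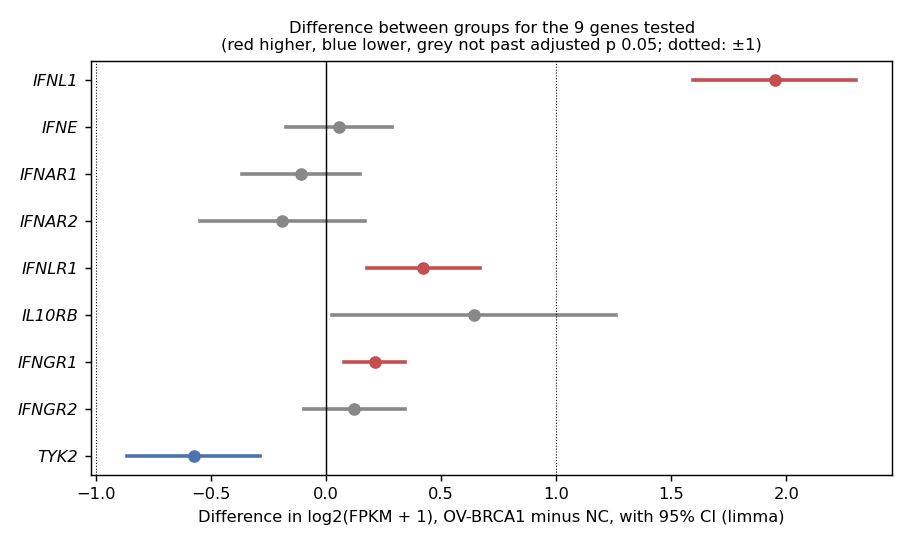
Difference in log2(FPKM + 1) between the OV-BRCA1 and NC groups for the 9 genes tested (points, horizontal axis) with the 95% CI of limma (bars), coloured red where the gene rose, blue where it fell and grey where the adjusted p was not below 0.05. IFNL1, with NC values of 0, stands at 1.95, beyond the dotted line at 1, and the other 8 genes lie between -0.58 and 0.64.

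Because short transcripts weigh heavily in a sum of FPKM, the genes were also compared as FPM, the sum of FPKM times transcript length in kilobases. FPM does not favour short transcripts, and it was added with the values already known. IFNL1, which enters the test only through its OV-BRCA1 values, passed again and is left out here too. Of the other 8 genes tested, the same 3 passed. IFNLR1 was at 8.27 ± 0.293 against 5.33 ± 0.227 FPM (adjusted p = 0.00278), IFNGR1 at 78.2 ± 2.84 against 66.6 ± 2.02 (adjusted p = 0.00914) and TYK2 at 77.1 ± 2.96 against 120 ± 12.0 (adjusted p = 0.00127), each as mean ± SD with n = 3 and limma's adjusted p. On this measure 42.6% of all genes passed, 20.2% higher and 22.4% lower. IFNAR1 was at 57.5 ± 4.32 against 58.2 ± 2.04 FPM (mean ± SD, n = 3 per group), and IFNE, IFNAR1, IFNAR2, IL10RB and IFNGR2 did not pass here either.

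By mean FPKM, TYK2 was the highest of the set in both groups, followed by IFNGR1 and IFNGR2, whose levels were not apart beyond their spread. The order rests on FPKM, in which the short transcripts of TYK2 weigh heavily. FPM is not per length and grows with transcript length, so it gives no order of levels between genes of unlike length. In FPM, IFNGR1 (78.2) and TYK2 (77.1) stood close together in the OV-BRCA1 group. IFNAR1 (57.5), whose main transcript IFNAR1-201 has 6139 bases, stood above IL10RB (34.4), whose IL10RB-201 has 1963. By FPKM, in the OV-BRCA1 group, IL10RB (18.2 ± 6.12) and IFNAR1 (11.4 ± 1.54) followed and were not apart, then IFNAR2 (8.49 ± 0.238). IFNL1 (2.91 ± 0.761) and IFNLR1 (2.72 ± 0.111) came next and were not apart, and IFNE and IFNB1 were lowest (mean ± SD, n = 3 per group). In the NC group IFNAR1, IL10RB and IFNAR2 stood at 12.3 ± 0.683, 10.9 ± 1.20 and 9.99 ± 2.33 FPKM and were not apart from their neighbours in that order, with IFNLR1 (1.78 ± 0.298) and IFNE (1.10 ± 0.0162) below them. Within each receptor, the ratio of the chains over all transcripts overlapped between the groups. IFNGR1 over IFNGR2 was 1.08 to 1.21 in the OV-BRCA1 group against 0.986 to 1.18 in the NC group, IFNAR1 over IFNAR2 was 1.18 to 1.46 and 1.02 to 1.52, and IL10RB over IFNLR1 was 4.14 to 8.23 and 5.43 to 7.28. The last depended on IL10RB-204. Without that transcript, a sum chosen with the values known, the ratio was 3.87, 2.37 and 1.98 in OV-BRCA1 replicates 1, 2 and 3 and 4.93, 6.50 and 5.16 in NC replicates 1, 2 and 3, and the groups did not overlap.

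Around these genes, those that sense nucleic acid and switch on interferon genes included more that rose than fell. Of 19 genes of this list, all tested, 12 rose, 1 fell and 6 did not pass, with a median difference of 0.42. Among all genes tested, 16.4% rose and 18.9% fell, with the median of -0.04. The number that rose was 9 with no filter on low values and 8 with the most abundant transcript of each gene. DDX58, which encodes the RNA sensor RIG-I, stood at 140, 140 and 146 FPKM in OV-BRCA1 replicates 1, 2 and 3 and at 18.2, 17.4 and 18.3 in the NC samples, a difference of 2.91 (limma adjusted p = 1.24e-06). The related sensor IFIH1 (MDA5) was at 48.8 ± 1.10 against 7.37 ± 0.540 FPKM, and TRIM25, a ubiquitin ligase that acts on RIG-I, at 39.9 ± 2.83 against 21.0 ± 0.315 (mean ± SD, n = 3 per group). Both rose, by 2.57 and 0.89. The gene that fell was MAVS, the mitochondrial adaptor of these sensors, with a difference of -0.41 (adjusted p = 0.00633), named with its values known. IRF3, a factor that these sensors activate, did not pass. It was at 41.9 ± 0.902 against 42.0 ± 2.11 FPKM (difference -0.00089, 95% CI -0.13 to 0.13), and it was also named with its values known. IRF7 and IRF1 of the same list rose, by 1.62 (limma adjusted p = 2.44e-04) and 1.00 (adjusted p = 0.0103), likewise named with their values known.

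Of the 6 genes that relay the signal from the receptors, 3 rose, 1 fell and 2 did not pass, with a median difference of 0.45, against the same 16.4% and 18.9% over all genes tested. STAT2 was at 97.4 ± 4.07 FPKM in the OV-BRCA1 group against 50.8 ± 3.72 in the NC group, and IRF9 at 62.6 ± 4.34 against 37.5 ± 2.16 (mean ± SD, n = 3 per group), with differences of 0.93 and 0.72. Both are parts of the complex that binds the response element. For STAT2 the difference was 0.06 with protein-coding transcripts alone (adjusted p = 0.741), and with the most abundant transcript it was 1.34 and called. For IRF9 the difference was larger on both of these measures, 1.54 with the most abundant transcript, which was not called (adjusted p = 0.0601), and 1.46 with protein-coding transcripts, which was called (adjusted p = 0.0280). JAK1, the kinase that partners TYK2 on the type I and type III receptors, fell, from 38.1 ± 0.560 to 31.3 ± 0.515 FPKM (difference -0.28, limma adjusted p = 0.00530), and was named with its values known. The ratio of TYK2 to JAK1 was 1.66, 1.81 and 1.95 in OV-BRCA1 replicates 1, 2 and 3 and 2.66, 2.11 and 1.95 in NC replicates 1, 2 and 3.

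Of 13 genes that restrain the receptors, all tested, 5 rose and 0 fell, with a median difference of 0.15, where 16.4% of all genes tested rose and 18.9% fell. USP18, which binds IFNAR2 and damps its signal, was at 55.6 ± 0.762 FPKM against 9.83 ± 0.402, and ISG15, which stabilises USP18 in human cells, at 2231 ± 112 against 426 ± 11.0 (mean ± SD, n = 3 per group). Their differences were 2.38 and 2.39. CSNK1A1, a kinase that marks IFNAR1 for removal, rose by 0.70 (limma adjusted p = 2.20e-04), and by 0.35 on its most abundant transcript alone (adjusted p = 0.0256). The other 2 that rose were SOCS1 and PRKD2, named with their values known.

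Among 9 relatives of these chains, the class II cytokine receptors and the ligands of IL10RB-containing receptors, 4 were tested, 2 rose and 0 fell, where 16.4% of all genes tested rose and 18.9% fell. F3, tissue factor, was at 182 ± 3.67 against 98.0 ± 2.17 FPKM and IL22RA1, the IL-22 chain that pairs with IL10RB, at 2.14 ± 0.143 against 1.14 ± 0.204 (mean ± SD, n = 3 per group), with differences of 0.89 and 0.56 (0.87 for IL22RA1 with a pseudocount of 0.1). IL20RA was at 0.738 ± 0.458 against 0.936 ± 0.178 FPKM and did not pass (adjusted p = 0.505). IL10, IL22 and IL26 were listed at 0 in all samples. The median difference of the 4 tested was 0.26.

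Of 8 response genes, 7 rose, and each of the 7 was a DEG, with a median difference of 2.97 over the 8, where 16.4% of all genes tested rose and 2.89% were upregulated DEGs. IFIT1 was at 977 ± 20.0 FPKM against 68.1 ± 1.05, MX1 at 251 ± 4.30 against 20.3 ± 0.0835 and RSAD2 at 123 ± 3.71 against 5.07 ± 0.595 (mean ± SD, n = 3 per group), with differences of 3.82, 3.57 and 4.36. All 3 encode antiviral proteins. CIITA, the class II transactivator that IFN-gamma induces, was at 1.80 ± 0.304 against 1.23 ± 0.271 FPKM and did not pass (difference 0.33, adjusted p = 0.0931). CIITA was named with its values known. It was the only gene of this list that did not rise. CXCL10, GBP1, OAS1 and IDO1 of the same list rose by 4.13, 2.37, 2.23 and 1.72, also named with their values known. The 7 genes that rose had differences of 1.72 to 4.36, and the 6 receptor chains had differences of -0.19 to 0.64. Both ends of the latter range changed sign with protein-coding transcripts alone, IL10RB to -0.36 and IFNAR2 to 0.22.

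**Figure D4:**
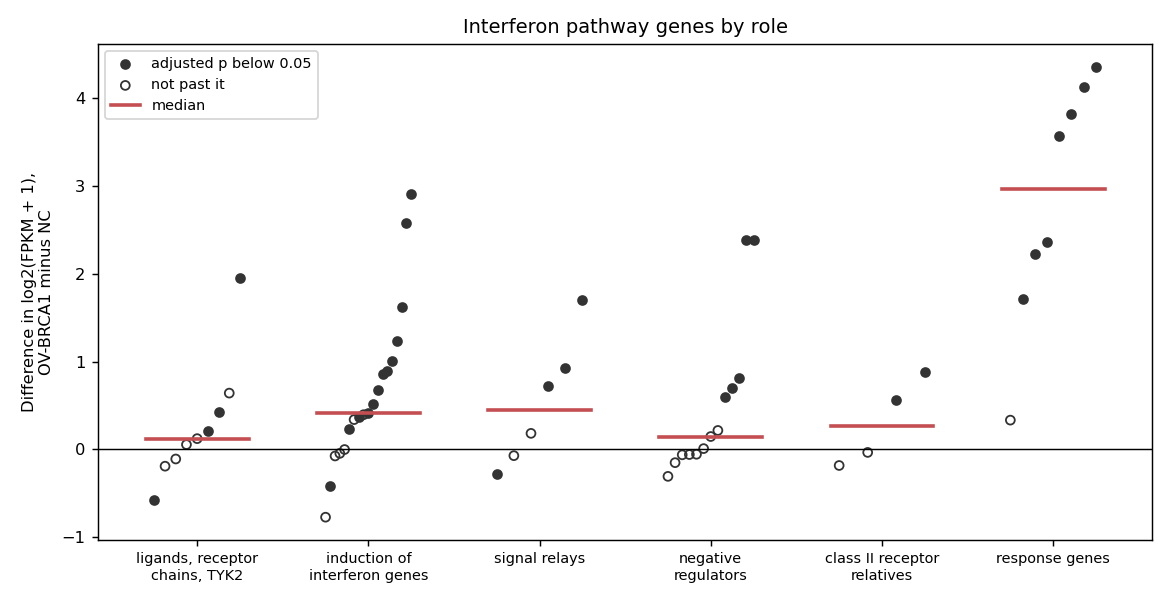
Difference in log2(FPKM + 1) between the OV-BRCA1 and NC groups (vertical axis) for the tested genes of each list, 1 point per gene, filled where the adjusted p was below 0.05, with the median of each list as a red line. The medians lie at 0.12 for the ligands, receptor chains and TYK2 (9 genes, IFNL1 included), 0.42 for induction, 0.45 for signal relays, 0.15 for negative regulators, 0.26 for class II receptor relatives and 2.97 for response genes.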

How the data were processed

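The samples were grouped by their labels, 3 OV-BRCA1 and 3 NC. The authors deposited FPKM for 199167 transcripts of 58174 genes, after removal of adapter-bearing and low-quality reads. The submitters' processing notes name FastQC, HISAT2 and the build hg38 without their roles. The counting tool, annotation and use of strand are not given in the sources used here. Names and coordinates were taken from GENCODE release 29 (GRCh38), which held 198868 of the transcripts.

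Transcript FPKM was summed per gene and compared with limma 3.58.1 in R 4.3.3 (trend, not robust) on log2(FPKM + 1), with Benjamini-Hochberg adjustment over the 16321 genes that reached 0.5 FPKM in 3 or more samples. The study's own test modelled counts, and no counts were analysed here. The fit was tested on simulated data. The rest used Python 3.11.15 (numpy 2.4.6, pandas 2.3.3) and, for plots, matplotlib 3.10.9.

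Depth was estimated from the FPKM worth of 1 fragment over 14216 single-transcript genes 600 to 5000 bases long. Only 33.0% to 38.1% of low values lay within 0.1 of a whole fragment, so whole reads were not recovered. Fragment numbers and what they allow cover counting error only.

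The genes and lists were chosen with earlier results of these data known. The text names the 10 genes of the set, BRCA1, other interferon genes above 0 in at least 3 samples, up to 3 genes with the smallest adjusted p of each list, and protein-coding genes with the on/off pattern of IFNL1. Others are marked where named. Of the genes that this rule takes, 1 is not reported. Alternatives were a pseudocount of 0.1, no filter, a mean FPKM of at least 1, a replicate block, each sample left out, 2 scalings, the top transcript, coding transcripts only and the read-through gene added. After the values had been seen, 3 more were added, every transcript on its own, IL10RB without IL10RB-204 (also in its ratio to IFNLR1) and FPM (FPKM times transcript length in kilobases, summed).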

Additional observations from a re-analysis of the deposited data

How the results depend on the processing

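The direction of IFNL1 could not change under any alternative, since all NC values are 0, and its leave-one-out differences of 1.80 to 2.06 are no sign of stability. IFNB1, untested, had a difference of 2.21 with a pseudocount of 0.1, against 0.62. With no filter on low values, 58174 genes enter the adjustment and the calls of IFNLR1 (0.42, adjusted p = 0.0741), IFNGR1 (0.21, 0.0666) and TYK2 (-0.58, 0.0941) were lost, leaving 0 genes of the set lower. TYK2 also lost its call with its most abundant transcript (-1.07) or coding transcripts alone (-0.32), again leaving 0 lower. IL10RB reversed to -0.36 with its most abundant transcript, to -0.36 with coding transcripts and to -0.39 without IL10RB-204, and IFNAR2 reversed to 0.22 with coding transcripts. Leaving out 1 sample gave differences of 0.37 to 0.51 for IFNLR1 (4 of 6 not called), 0.19 to 0.25 for IFNGR1 (5 of 6 not called) and 0.49 to 0.94 for IL10RB (called without OV-BRCA1 sample 1). The uncalled differences ranged from 0.02 to 0.13 for IFNE, -0.19 to -0.01 for IFNAR1, -0.32 to -0.03 for IFNAR2 and 0.07 to 0.21 for IFNGR2, without a call. The number of genes of the set that rose was then 1 to 3, IFNL1 included, and was 1 without OV-BRCA1 sample 3, NC sample 2 or NC sample 3. It was also 1 with every transcript tested on its own. Wherever the number was 1, that gene was IFNL1, which entered the test only through its OV-BRCA1 values. Genes that fell numbered 1 to 2 in the induction list and 0 to 1 among the negative regulators when 1 sample was left out, the higher counts coming without OV-BRCA1 sample 1. They numbered 2 in the induction list when scaled to nuclear protein-coding genes, and 1 among the negative regulators with coding transcripts or FPM. Same-numbered samples did not deviate together (correlations of -0.024, 0.025 and 0.014), which gave no sign of pairing. This cannot exclude that they were handled together, and the labels do not say. With the replicate number as a block only IFNL1 of the set rose, a gene with no NC value above 0. IFNLR1 (0.42, adjusted p = 0.0528) and IFNGR1 (0.21, 0.0776) lost their calls. The cause of these changes was not tested beyond what each alternative leaves out. No scaling moved the median of all genes by over 0.1. Scaled to nuclear protein-coding genes, IFNLR1 (0.40, limma adjusted p = 0.0263), IFNGR1 (0.17, 0.0429) and TYK2 (-0.62, 0.0103) kept their calls. At the estimated depth, levels under about 0.1 FPKM in the ligands rest on 1 or 2 fragments.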
